A study of Zea mays with 57 samples.

Results

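Maize shoots sampled 45 min after nitrogen-starved seedlings were moved into nitrogen medium were compared with shoots sampled at the start of the same course, in 3 libraries against 3, which are 6 of the 57 libraries of the series. The nitrogen 45 min seedlings stood in fresh medium with 20 mM KNO3 and 20 mM NH4NO3, in which 10% of the nitrogen was 15N. A second group of 3 libraries, from seedlings moved into 20 mM KCl for the same 45 min, served as a further control for the transfer and the time. The start seedlings were sampled at 0 min. All groups were shoots of the inbred line B73, aged 10 days, raised in nitrate-free medium with the endosperm cut away and starved of nitrogen for 2 days. Each replicate pooled 3 seedlings, and the course was sampled at 9 times in each medium after the start. The comparison of nitrogen at 45 min with the start spans the medium, the transfer and the passing of the morning, whereas the comparison with KCl at 45 min spans the medium.

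Nitrate is both a nutrient and a signal in plants: it is reduced to nitrite and then to ammonium, which glutamine synthetase and glutamate synthase build into amino acids. Nitrate itself switches on genes within minutes, among them those of its own uptake and reduction, through transcription factors of the NLP family that were worked out mainly in Arabidopsis. In a seedling fed through the roots, the shoot sees this nitrogen after transport in the xylem, together with signals such as cytokinins. Nuclear genes are given here by the identifiers of the count table and their position in the AGPv4 assembly of maize, because none of the 44146 nuclear identifiers is paired with a name in the sources used here. For that reason no transporter, reductase or glutamine synthetase is singled out by name, and the markers of shoot and root could not be checked.

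The libraries were made from the 3' ends of polyadenylated RNA with unique molecular identifiers. They held 2647049, 2443616 and 2688883 counts at nitrogen 45 min, and 2618258, 3353328 and 2831294 counts at the start. A single count in these libraries was worth between 0.297 and 0.431 counts per 1000000 (CPM). Replicates of a group differed by more than sampling noise in every pair, and start replicate 3 stood apart from its mates. The chi-square per degree of freedom between its counts and those of replicates 1 and 2 was 4.02 and 4.49, against 1.74 between replicates 1 and 2, and from 1.93 to 2.65 among the nitrogen 45 min libraries. Start replicate 3 also had 0.419% of its counts on plastid gene models, against 0.176% and 0.195% in the other start libraries. The main counts and the named genes were therefore also tested without it.

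At 45 min of nitrogen, 341 of 18412 tested genes (1.85%) differed from the start at an adjusted p under 0.05 in edgeR's quasi-likelihood test with Benjamini-Hochberg adjustment. Of these, 144 rose (0.782% of the genes tested) and 197 fell (1.07%). Of the 10 largest named rises, 9 kept their call, among them Zm00001d018161 and Zm00001d044138, under every processing alternative tried. In all, 47 of the 144 rises kept their call in every alternative that tested them, and none of the 197 falls did. Without start replicate 3, 59 of the 144 rises and 5 of the 197 falls were still called. In bulk shoots, fewer cells of a type and less RNA per cell cannot be told apart.

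Among the genes that rose, the median log2 change was 0.95, with an interquartile range from 0.73 to 1.44, and 66 of them more than doubled. Their median level over the 6 libraries was 39.1 CPM. Among those that fell, the median log2 change was -1.10, 117 of them fell by more than 2-fold, and their median level was 17.6 CPM. The median change over all genes tested was -0.02. Genes not called had a median of 18.1 CPM, so over these 6 libraries the rises lay at higher abundance and the falls near that level. The same libraries chose the genes, and a change moves a gene's own mean. Under 5 CPM were 7 of 144 rises and 31 of 197 falls, against 3185 of all 18412 genes. Read by abundance, 1.19% of the 3185 genes under 5 CPM were called and 2.27% of the 6778 genes between 20 and 100 CPM.

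**Figure D1:**
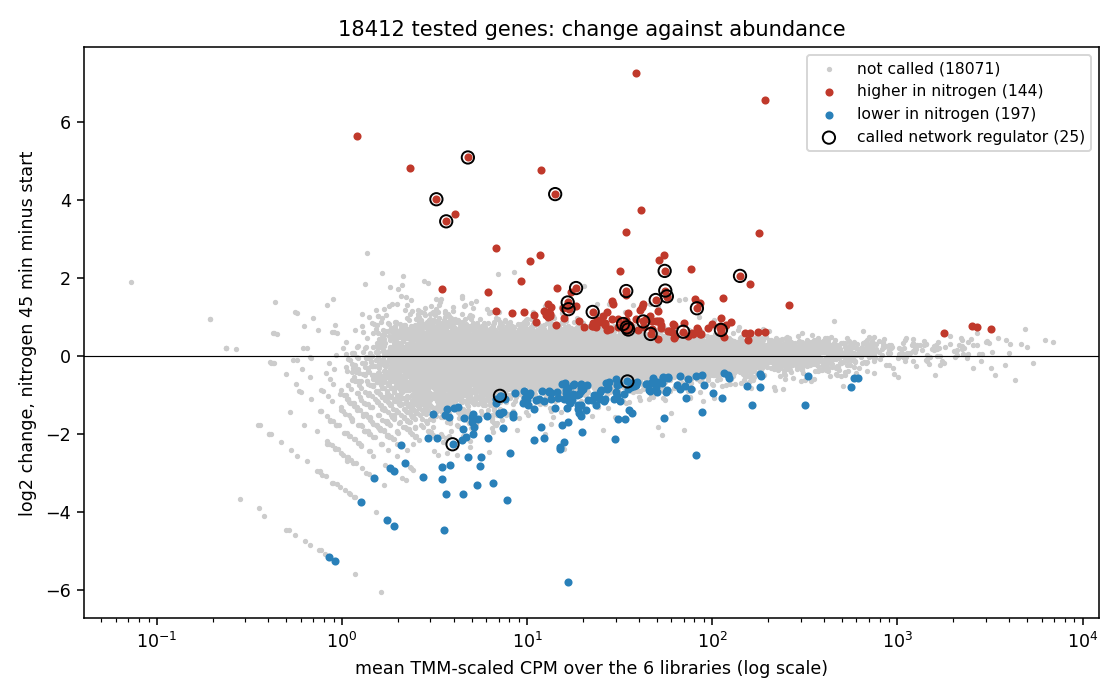
Log2 change between nitrogen 45 min and the start (vertical axis) against the mean TMM-scaled CPM over the 6 libraries (log horizontal axis) for the 18412 genes tested; each point is a gene, red for the 144 called higher, blue for the 197 called lower, grey for the rest, and a ring marks a called regulator of the deposited network. Of the red points 7 lie under 5 CPM, of the blue points 31, and 22 of the 25 rings lie above 0.

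The largest rise that met the rule for named genes was that of Zm00001d018161 (chromosome 5, 215727084 to 215730071, minus strand). It stood at 80.5, 107 and 41.8 CPM in the nitrogen 45 min libraries, against 0.777, 0.297 and 0.348 CPM at the start. The start values are 1 or 2 counts a library, so the gene was barely detected before nitrogen came. Summed over libraries, 567 counts stood against 4, a ratio of 166 with a 95% exact binomial interval from 64.6 to 613 that covers counting error only. The fitted log2 change was 7.24 ± 0.51 (SE), with an adjusted p of 7.03e-15, and the gene stayed at 0, 1.17 and 1.07 CPM in KCl at 45 min.

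Zm00001d044138 (chromosome 3, 220166617 to 220170536, minus strand) reached a far higher level, 394, 510 and 237 CPM in nitrogen at 45 min, against 3.89, 3.87 and 4.18 CPM at the start. Its groups were separated by more than an order of magnitude, with the start libraries nearly identical and nitrogen replicate 3 the lowest of its group. The log2 change was 6.56 ± 0.39 (SE; adjusted p 1.26e-18), and in KCl at 45 min it averaged 6.55 ± 3.25 CPM (SD, n = 3). Zm00001d034345 (chromosome 1, 290272584 to 290276056, minus strand) had the smallest p of all genes in the comparison. It stood at 333, 378 and 251 CPM in nitrogen, against 39.3, 38.7 and 29.2 CPM at the start, a log2 change of 3.16 ± 0.17 (SE; adjusted p 1.48e-19). The KCl libraries lay below the start, at 20.3 to 28.8 CPM, a log2 difference from the start of -0.59 that did not pass the test (adjusted p 0.0824).

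Zm00001d038718 (chromosome 6, 163324435 to 163325813, minus strand) was at 24.9, 28.5 and 15.5 CPM in nitrogen, against 0.777, 0.297 and 1.39 CPM at the start. Its log2 change was 4.76 ± 0.50 (SE; adjusted p 2.27e-09), and its summed counts of 171 against 7 gave a ratio of 28.7 with an interval from 13.6 to 72.4. Zm00001d048020 (chromosome 9, 148178266 to 148179408, plus strand) stood at 52.1, 114 and 65.4 CPM in nitrogen, against 2.72, 12.5 and 0.696 CPM at the start. In KCl at 45 min, Zm00001d038718 and Zm00001d048020 averaged 0.73 and 0.71 CPM. The start level of Zm00001d048020 varied widely, with replicate 2 carrying 42 of its 51 start counts. Its log2 change was 3.75 ± 0.48 (SE; adjusted p 3.94e-07).

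Zm00001d042443 (chromosome 3, 167612707 to 167616683, minus strand) was at 76.3, 69.0 and 40.3 CPM in nitrogen, against 4.66, 7.14 and 8.35 CPM at the start, a log2 change of 3.18 ± 0.28 (SE). Zm00001d033543 and Zm00001d000640 rose by 2.60 and 2.59 on the log2 scale. Both of these overlap another gene model, and the count table's header names no strand setting. The overlapping models were nearly empty, with 95 and 37 counts over all libraries. Zm00001d018206 was the weakest of the 10, at 16.5, 12.1 and 6.97 CPM in nitrogen and 1.17, 0 and 4.18 CPM at the start. Its call (log2 change 2.75 ± 0.72 SE, adjusted p 0.0312) was lost without nitrogen replicate 1 or 2, without start replicate 1 or 2 and in DESeq2, and it did not pass the test against KCl at 45 min (adjusted p 0.0907).

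**Figure D2:**
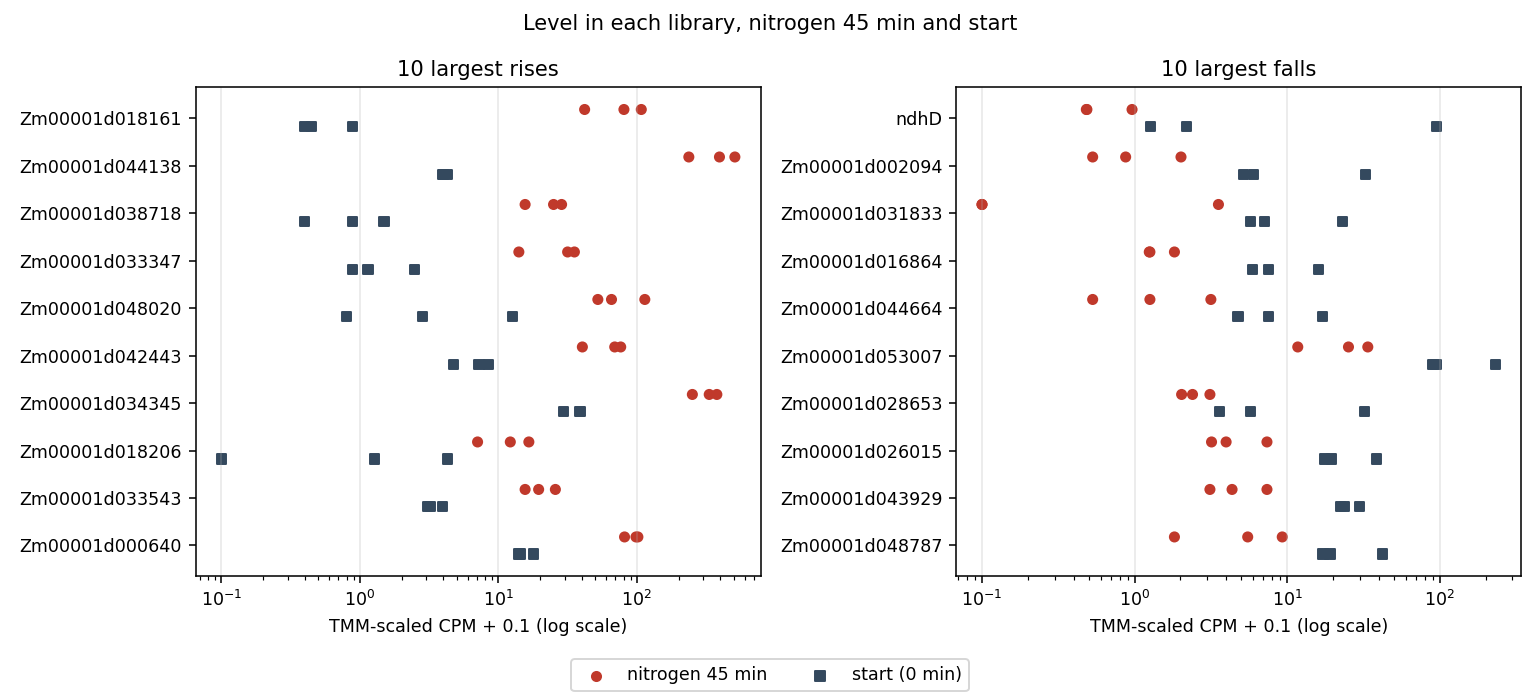
Level of the 10 largest rises (left) and 10 largest falls (right) that met the rule for named genes, as TMM-scaled CPM + 0.1 on a log axis; red circles are the 3 nitrogen 45 min libraries and dark squares the 3 start libraries. In the right panel the start library farthest to the right is replicate 3 for every gene, which for ndhD lies at 94.7 CPM, against 1.17 and 2.08 CPM in its mates.

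Of the 203 regulators in the authors' deposited network table, which links regulators to targets by a weight, 22 rose and 3 fell. That is 12.3% called, with a median log2 change of 0.16, against 1.85% and -0.02 over all genes tested. All 203 had enough counts to be tested, against 18412 of all 46335 genes. The regulators may have been chosen on these same libraries, so their share is not independent evidence. None of the 25 regulators passed the test between KCl at 45 min and the start, where 4.93% of all genes did. Without start replicate 3, 16 of the 22 rises and none of the 3 falls kept their call, and 13 rises did so in every alternative that tested them.

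The largest rise among regulators over 5 CPM was that of Zm00001d033347 (chromosome 1, 259828724 to 259831189, plus strand), at 35.3, 31.5 and 13.9 CPM in nitrogen, against 0.777, 2.38 and 1.04 CPM at the start. The log2 change was 4.15 ± 0.45 (SE; adjusted p 3.02e-09). Zm00001d030891 (chromosome 1, 166009842 to 166012367, minus strand) was the most abundant of the 5 named, at 221, 290 and 170 CPM in nitrogen, against 54.8, 58 and 51.2 CPM at the start. Its start libraries were tightly grouped and every nitrogen library lay far above them. The log2 change was 2.05 ± 0.18 (SE; adjusted p 7.95e-12).

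Zm00001d000112, on the unplaced contig B73V4_ctg52 (346937 to 349561, minus strand), stood at 98.9, 113 and 60.4 CPM in nitrogen, against 19.4, 21.7 and 18.5 CPM at the start, a log2 change of 2.18 ± 0.22 (SE). In KCl at 45 min it lay in between, at 28.8, 34.6 and 36.4 CPM, where its log2 difference from the start of 0.73 did not pass the test (adjusted p 0.0742). Zm00001d028752 and Zm00001d034160 rose by 1.74 and 1.68 on the log2 scale, to means of 28.3 and 84.8 CPM in nitrogen, against 8.40 and 26.5 CPM at the start. All 5 of these regulators kept their call in every alternative that tested them. A further 3 regulators rose at under 5 CPM on average: Zm00001d021208 gave 70 counts in nitrogen and 2 at the start, Zm00001d027928 gave 47 and 3, and Zm00001d034783 gave 50 and 5.

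Only 2 regulators that fell met the abundance limit. Zm00001d013331 was at 4.22, 6.04 and 3.87 CPM in nitrogen, against 9.33, 9.52 and 9.75 CPM at the start, a log2 change of -1.02 ± 0.29 (SE). Its adjusted p of 0.0499 lay at the threshold and its call was kept in 3 of 17 alternatives. Zm00001d042968 was at 26.1, 25.9 and 29 CPM in nitrogen and 38.1, 36 and 53.6 CPM at the start, so that the log2 change was -0.65 ± 0.17 (SE; adjusted p 0.0269). Start replicate 3 was its highest library, and without it the change was -0.44, with an adjusted p of 0.381. The third, Zm00001d039014, gave 10 counts in nitrogen and 58 at the start, and was also not called without start replicate 3 (adjusted p 0.233).

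**Figure D3:**
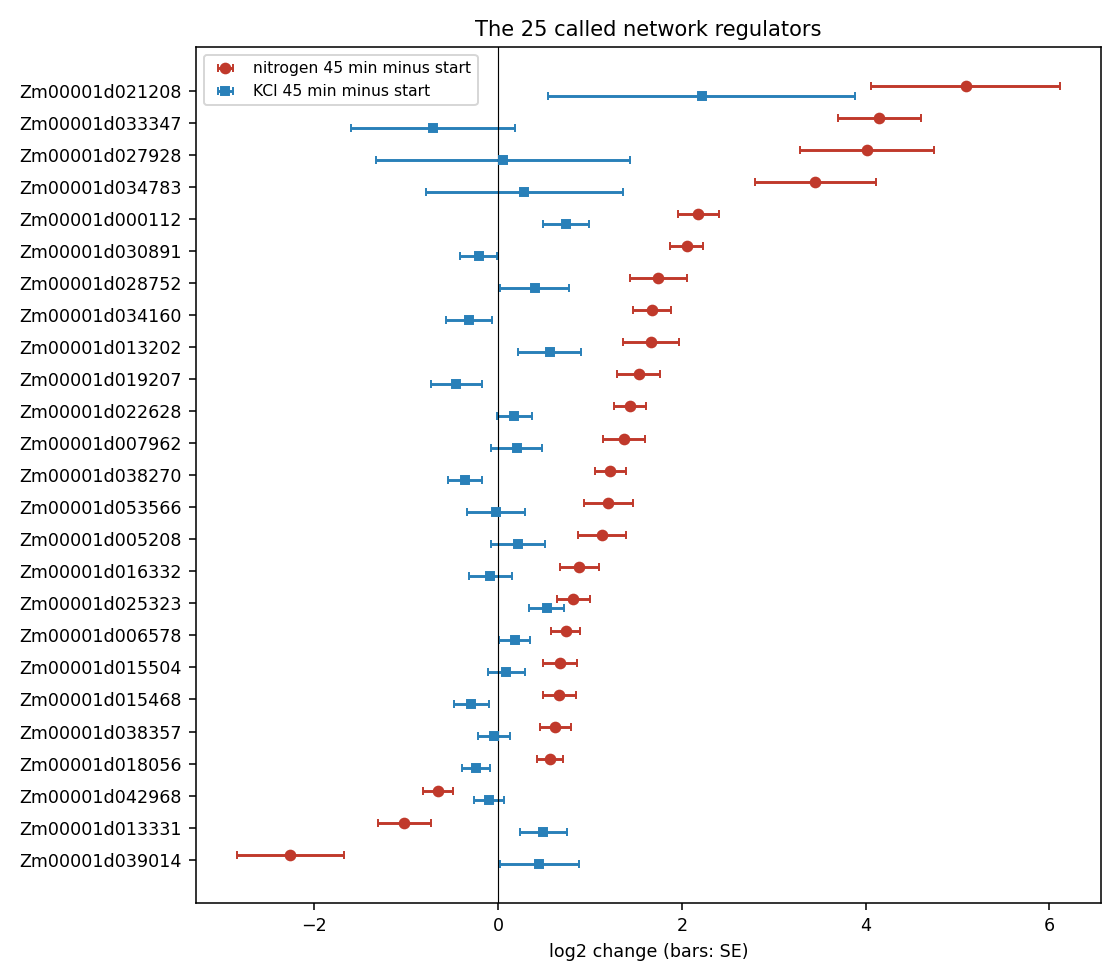
Log2 change from the start of the 25 called network regulators (rows, largest rise on top) at nitrogen 45 min (red circles) and at KCl 45 min (blue squares), with bars for the SE; both sets share the start libraries. The nitrogen values run from -2.26 to 5.09, and the KCl values lie between -0.71 and 2.22 with none past the test.

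Network weights and calls were also read together. Among the 100 highest-weight targets of each called regulator, the number that rose ran from 0 to 9 and the number that fell from 0 to 7. The 9, the highest count of rises, belong to Zm00001d021208, whose top targets held no fall. The top targets of Zm00001d042968 held 6 rises and 7 falls. Such counts stand against a share of 7.99% called, rises and falls together, among the network genes that are not regulators. Whether the count of any regulator exceeds that share was not tested. For the named regulators, none of the 3 targets of highest weight was called, the nearest being Zm00001d018797, a target of Zm00001d034160, with a log2 change of 0.68 and an adjusted p of 0.0623. Among the 2529 other genes of the network table, 85 rose and 117 fell (7.99%, median log2 change -0.03), against 37 and 77 of the 15680 genes outside it (0.727%). All 2529 had enough counts to be tested, against 18412 of all 46335 genes. These genes too may have been chosen on the same libraries, so the contrast is not independent evidence.

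The most abundant genes that rose changed by less than 2-fold, with the exception of Zm00001d038003. Zm00001d006663 (chromosome 2, 213805344 to 213811979, plus strand) averaged 3944 ± 663 CPM in nitrogen at 45 min and 2423 ± 270 CPM at the start (SD, n = 3 each). Zm00001d048998 averaged 3344 ± 393 CPM in nitrogen and 2014 ± 50.3 CPM at the start, and Zm00001d021784 averaged 3163 ± 465 and 1864 ± 245 CPM in the same groups. Their log2 changes were 0.70, 0.73 and 0.76. Zm00001d006587 also, rose by 0.59 on the log2 scale (adjusted p 0.0452) and stood at nearly the same level in KCl, 2013 ± 148 CPM, against 2135 ± 134 CPM in nitrogen (log2 difference 0.08 ± 0.16 SE, adjusted p 0.749). Zm00001d038003 changed most of the 5, with 340, 381 and 394 CPM in nitrogen against 146, 217 and 83.2 CPM at the start, a log2 change of 1.32 ± 0.28 (SE). None of these 5 calls was kept without start replicate 3, when the log2 changes were between 0.58 and 1.05.

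Without start replicate 3 the falls lost a larger part of their calls than the rises, and the same was true without nitrogen replicate 2. Start replicate 3 was the highest start library in 165 of the 197 genes that fell, against 6439 of the 18071 genes not called. It was the lowest start library in 81 of the 144 rises, against 6988 of the genes not called. In the falls its level exceeded the mean of its mates by a median of 0.48 on the log2 scale, against -0.17 in the rises and -0.02 in genes not called. The fitted change of the falls had a median of -0.89 without that library, and 1 of the 197 turned round, Zm00001d024518, from a log2 change of -3.32 with all libraries to 0.16. Removing nitrogen replicate 2 also left 5 of the falls called, and removing nitrogen replicate 3 left 26, whereas removing start replicate 1 left 169 and start replicate 2 left 158. Of the rises, 61 were called without nitrogen replicate 2, 96 without nitrogen replicate 3, 108 without start replicate 1 and 113 without start replicate 2.

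**Figure D4:**
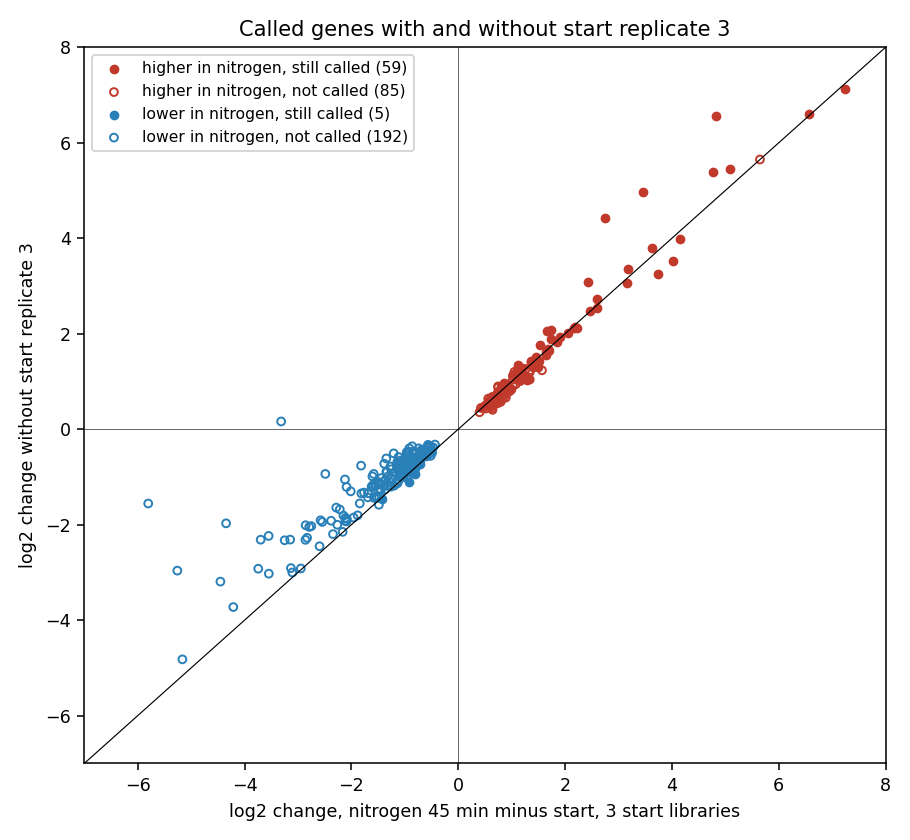
Log2 change of the 341 called genes between nitrogen 45 min and the start with all 3 start libraries (horizontal axis) and without start replicate 3 (vertical axis); filled points were still called without it and the diagonal marks equal values. Filled red points number 59 and filled blue points 5, and most blue points lie above the diagonal, closer to 0.

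The plastid gene GRMZM5G800096 shows the weight of start replicate 3 most plainly (plastid genome, 110138 to 111685, minus strand). It coincides with ndhD, a subunit of the chloroplast NADH dehydrogenase-like complex of cyclic electron flow. It stood at 0.383, 0.863 and 0.387 CPM in nitrogen at 45 min, and at 1.17, 2.08 and 94.7 CPM at the start. Of 282 start counts, 272 came from replicate 3. Its log2 change was -5.81 ± 1.24 (SE; adjusted p 0.00591) with all libraries and -1.56 without start replicate 3 (adjusted p 0.811). In KCl at 45 min it was at 33.1, 66.3 and 78.1 CPM, all well above the nitrogen libraries, a log2 difference of -6.66 ± 1.16 (SE; adjusted p 5.04e-05) that uses no start library. A second gene model, GRMZM5G806488, overlaps it on the opposite strand of the plastid genome and held 1 count over all libraries.

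Zm00001d053007 (chromosome 4, 208796971 to 208799934, minus strand) was the most abundant of the 10 largest falls. It was at 33.7, 11.7 and 25.2 CPM in nitrogen, against 90.2, 94.6 and 232 CPM at the start. Groups that do not overlap were a condition for being named here. Its log2 change was -2.55 ± 0.59 (SE; adjusted p 0.0147), and without start replicate 3 it was -1.94 (adjusted p 0.235). In KCl it lay above the start, at 237, 281 and 320 CPM, although that log2 difference of 1.01 did not pass the test (adjusted p 0.245). The nitrogen libraries were thus below both other groups.

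Zm00001d043929 (chromosome 3, 214131859 to 214132767, plus strand) depended least on that library among the 10. It was at 7.28, 3.02 and 4.26 CPM in nitrogen and 23.7, 22.3 and 29.6 CPM at the start. The log2 change was -2.35 ± 0.51 (SE; adjusted p 0.00697), and without start replicate 3 it was -2.20, with an adjusted p of 0.0602. Zm00001d002094 (chromosome 2, 5872428 to 5873039, plus strand) was at 1.92, 0.431 and 0.774 CPM in nitrogen, against 5.05, 5.95 and 32.4 CPM at the start, a log2 change of -3.70 ± 0.89 (SE). The other 6, Zm00001d031833, Zm00001d016864, Zm00001d044664, Zm00001d028653, Zm00001d026015 and Zm00001d048787, had log2 changes between -3.25 and -2.22. Start replicate 3 was their highest start library in each case. None of the 10 was called without it. All but ndhD also lost their call without nitrogen replicate 2 and without nitrogen replicate 3. Zm00001d016864 overlaps another model on the opposite strand that held 138 counts over all libraries.

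The 5 falls that were still called without start replicate 3 had log2 changes between -1.43 and -0.71. Their mean levels over the 6 libraries ran from 7.37 to 49.3 CPM. They were singled out after their values were seen. Zm00001d038228 (chromosome 6, 152043328 to 152047466) was at 3.83, 3.45 and 4.65 CPM in nitrogen, against 9.72, 12.5 and 10.1 CPM at the start, a log2 change of -1.43 ± 0.30 (SE). Zm00001d050610 (chromosome 4, 104008719 to 104014187) was at 37.9, 28.9 and 40.7 CPM in nitrogen and 65.3, 62.5 and 60.6 CPM at the start, a log2 change of -0.80 ± 0.17 (SE). In both genes the start libraries lay close together. Zm00001d007270, Zm00001d050961 and Zm00001d010590 fell by 0.71, 0.80 and 0.91 on the log2 scale. Zm00001d038228 and Zm00001d010590 passed neither against KCl at 45 min (adjusted p 0.0774 and 0.0962) nor between the media at 30 and 60 min (adjusted p 0.166 and 0.438), and Zm00001d010590 kept its call in 9 of 17 alternatives.

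Abundant genes that fell did so by less than 2-fold with 1 exception. Zm00001d014947 (chromosome 5, 69452584 to 69455758, plus strand) averaged 494 ± 55.8 CPM in nitrogen and 732 ± 41.8 CPM at the start (SD, n = 3 each), a log2 change of -0.57. Zm00001d022513 and Zm00001d017275 changed by -0.58 and -0.52 on the log2 scale. The exception, Zm00001d022005, was at 214, 156 and 188 CPM in nitrogen, against 303, 343 and 699 CPM at the start, a log2 change of -1.27 ± 0.32 (SE) that became -0.78 without start replicate 3 (adjusted p 0.406). Zm00001d028180 fell in both media. It was at 430, 436 and 365 CPM in nitrogen and 412, 379 and 377 CPM in KCl at 45 min, against 822, 551 and 769 CPM at the start. Its log2 change was -0.80 ± 0.21 (SE; adjusted p 0.0287) in nitrogen and -0.87 ± 0.21 (SE; adjusted p 0.00885) in KCl. The direct difference between the media was 0.07 ± 0.21 (SE; adjusted p 0.831). None of these 5 calls was kept without start replicate 3, although the other 4 log2 changes stayed near their size, at -0.54 for Zm00001d014947, -0.50 for Zm00001d022513, -0.56 for Zm00001d017275 and -0.72 for Zm00001d028180.

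**Figure D5:**
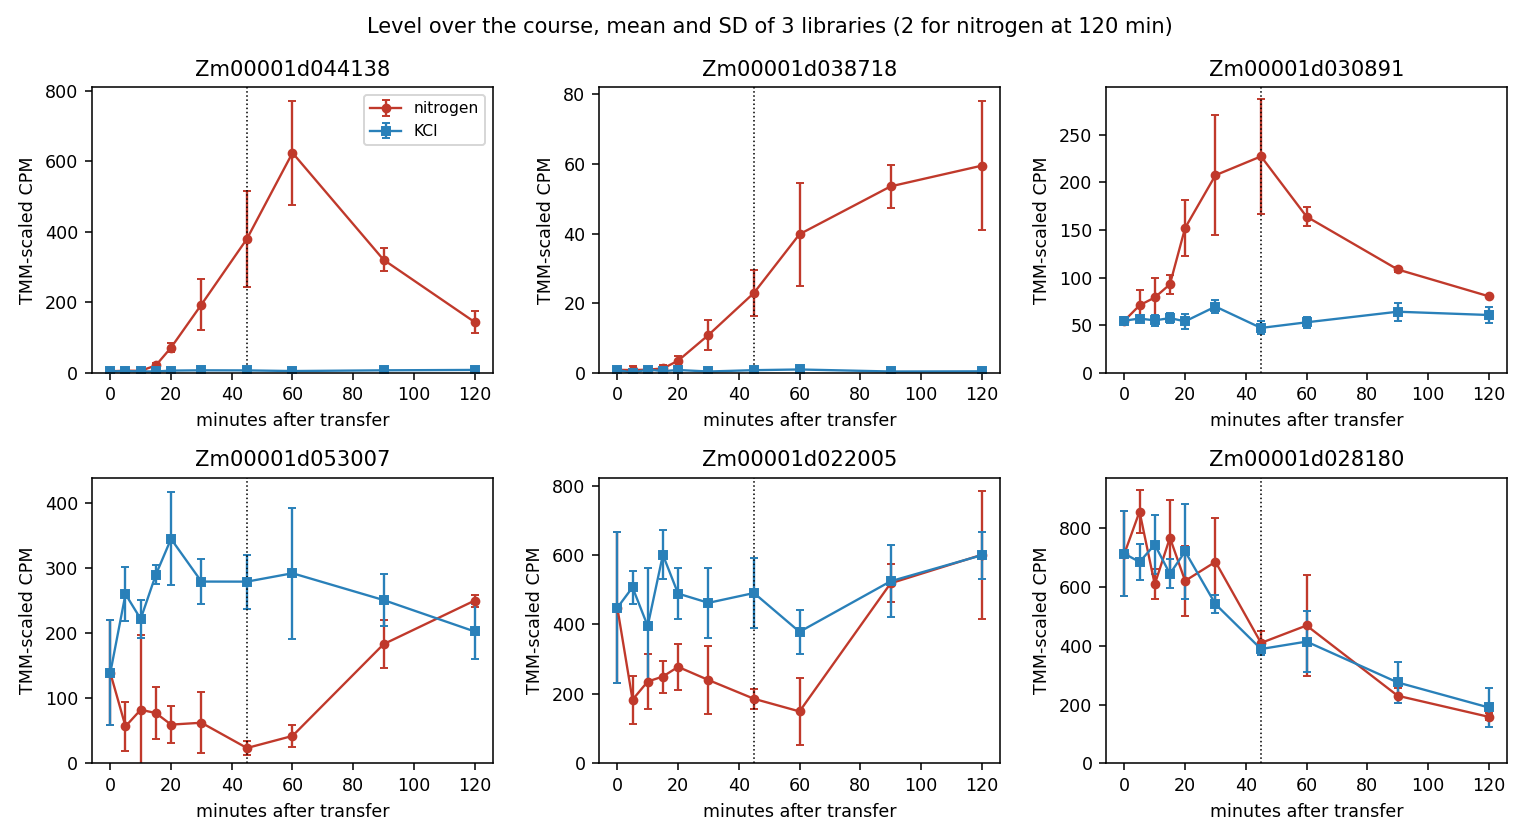
Mean TMM-scaled CPM ± SD of 3 libraries (2 for nitrogen at 120 min) against minutes after transfer, in nitrogen (red circles) and KCl (blue squares), with the start as the shared first point and a dotted line at 45 min, for 3 genes that rose (top) and 3 that fell (bottom). Zm00001d044138 climbs to 624 CPM at 60 min in nitrogen, Zm00001d053007 and Zm00001d022005 are low in nitrogen until 60 min and high at 120 min, and Zm00001d028180 declines in both media.

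Along the course, the rises built up in different ways. In nitrogen, Zm00001d044138 averaged 5.82 CPM at 5 min, reached 71.3 CPM by 20 min and 380 CPM by 45 min, was highest at 60 min with 624 CPM, and had come down to 144 CPM by 120 min. Zm00001d034345 kept climbing to 624 CPM at 90 min and was still at 570 CPM at 120 min. Zm00001d038718 had its highest mean at the last time, 59.5 CPM. The regulator Zm00001d030891, by contrast, was at 70.8 CPM at 5 min, had its highest mean at 45 min and was back to 80.3 CPM at 120 min. In KCl these 4 genes never exceeded 7.91, 29.8, 0.93 and 69.5 CPM in any group mean. Among the named regulators, Zm00001d034160 and Zm00001d028752 were highest earlier, with means of 105 and 43.6 CPM at 30 min. Zm00001d028752 also rose in KCl, to a mean of 42.5 ± 16.8 CPM (SD, n = 3) at 15 min, when its nitrogen mean was 18.3 CPM. Its highest level was thus similar in both media. The highest KCl mean of Zm00001d034160 was 37.8 CPM, at 120 min. The named rises thus differed in when they were highest.

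Among the falls, Zm00001d053007 averaged 56.7 CPM at 5 min, 23.5 CPM at 45 min and 42.1 CPM at 60 min in nitrogen, then 183 CPM at 90 min and 250 CPM at 120 min. ndhD followed the same order, at 0.924 CPM at 5 min, 1.70 CPM at 60 min and 24.7 CPM at 120 min, while its KCl means ran from 22.2 to 95.6 CPM. Relative to the start, the median over all 197 falls in nitrogen was -0.58 on the log2 scale at 5 min and -1.07 at 45 min. It was -0.09 by 90 min and 0.04 by 120 min. In KCl the median stayed between 0.04 and 0.33. For the 144 rises the nitrogen median was 0.33 at 5 min, 0.94 at 45 min and 1.04 at 60 min, and the last was 0.57; the KCl median stayed between -0.01 and 0.32. These medians use CPM + 0.5 and share the start libraries with each other and with the choice of genes, so only their order over time is described. In nitrogen, 64 of the rises had their highest mean at 60 min and 42 at 45 min, and 141 of the falls had their lowest mean at 45 min, the time they were chosen on.

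A further comparison, added after the data were seen, used other libraries. The mean of nitrogen minus KCl at 30 and 60 min shares no library with the means of nitrogen 45 min and the start. It was tested in the same fit, so the filter and each gene's estimate of spread are common to both comparisons. Among all genes tested, 17.3% were higher and 18% lower in nitrogen than in KCl at these times. Of the 144 rises, 107 (74.3%) were higher in nitrogen there, 2 were lower and 35 did not pass, with a median log2 difference of 0.77. Of the 197 falls, 163 (82.7%) were lower in nitrogen, 4 were higher and 30 did not pass, with a median of -0.93. So the falls, which lost nearly all their calls when start replicate 3 was left out, mostly passed between the media in other libraries. Of the 22 regulators that rose, 21 were higher in nitrogen at 30 and 60 min, and Zm00001d025323 was the one that did not pass. Among all 203 regulators, 68 were higher there. The regulators may have been chosen on these same libraries.

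Within-group variation moves with this difference. An axis was drawn from the deviations of libraries from their group means; it held 12.7% of that variation. The start libraries lay at 0.50, 0.31 and -0.80 on it, the nitrogen 45 min libraries at 0.83, 2.09 and 1.38, and the KCl 45 min libraries at -0.58, -0.97 and -1.06. Start replicate 3 was thus on the side of the KCl libraries and nitrogen replicate 2 was farthest from them. With the axis as a covariate, 71 genes were called between nitrogen 45 min and the start, 66 higher and 5 lower, of which 61 were among the 144 rises and 3 among the 197 falls. At 30 and 60 min, 71 of the rises were then higher and 50 of the falls lower in nitrogen, against 4.59% and 3.97% of all genes. The axis and the groups move together, so their parts in these calls cannot be told apart.

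The difference between the media at 45 min was broad. In nitrogen against KCl at 45 min, 4355 genes (23.7%) passed the test, and because both changes subtract the same start libraries this is also the test of whether the change from the start differed. Zm00001d042443 averaged 61.8 CPM in nitrogen and 9.07 CPM in KCl, Zm00001d033347 averaged 26.9 and 0.902 CPM, and Zm00001d030891 averaged 227 and 47 CPM in the same groups; all 3 passed. Zm00001d006663 averaged 3944 ± 663 CPM in nitrogen and 3101 ± 343 CPM in KCl (SD, n = 3 each). Its log2 difference of 0.35 ± 0.20 (SE) did not pass between the media (adjusted p 0.203).

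Few genes were called in the classes that the identifiers alone define. Over all genes tested 1.85% were called, and these classes are too small for their counts to be read against that share. Of 7 plastid models tested, ndhD was the single call, and their median log2 change was -0.38. Of 21 mitochondrial models tested none was called, with a median of 0.13. The summed share of counts on plastid models was 0.244% ± 0.0119 in nitrogen at 45 min and 0.263% ± 0.135 at the start (SD, n = 3 each), with a two-sided exact permutation p of 1 where the smallest possible is 0.1. Mitochondrial models took 0.458% ± 0.0391 in nitrogen and 0.474% ± 0.0544 at the start (SD, n = 3 each; exact permutation p 0.7). Against KCl at 45 min the shares did not overlap: plastid models took 0.244% ± 0.0119 in nitrogen and 0.365% ± 0.0892 in KCl, and mitochondrial models 0.458% ± 0.0391 and 0.334% ± 0.066 (SD, n = 3 each). Both have an exact permutation p of 0.1, the smallest that 3 against 3 allows, so no such test here can pass 0.05. At 30 and 60 min, 10 of the 21 mitochondrial models were higher and 3 of the 7 plastid models lower in nitrogen than in KCl. Among all genes tested, 17.3% were higher and 18% lower there. Of the 154 microRNA genes in the table none had enough counts to be tested, and among 138 other non-coding RNA genes ENSRNA049469775 was the single call, with a log2 change of -1.96 that was -1.85 without start replicate 3 (adjusted p 0.197).

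Some calls rest on very few counts. Zm00001d038291 had 34 counts in nitrogen and 1 at the start, a ratio of 39.9 with a 95% exact interval from 6.69 to 1620, and it was called in every alternative that tested it. Zm00001d044504 had 18 counts in nitrogen, none of them in replicate 3, and 0 at the start, which is at least 7.04-fold higher when 3 counts over the group are taken as the floor; the lower 95% exact limit of the ratio is 5.16. Its call was kept in 5 of 13 alternatives. Zm00001d027493 and Zm00001d051661 had no count in nitrogen against 16 and 15 at the start, at least 4.55-fold and 4.26-fold lower on the same floor, with lower exact limits of 3.29 and 3.06. Their calls were kept in 7 and 8 of 13 alternatives. None of these 3 was called without start replicate 3 (adjusted p 0.218 for Zm00001d044504, 0.561 for Zm00001d027493 and 0.203 for Zm00001d051661). For Zm00001d027493, 14 of the 16 start counts were in replicate 3.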

How the data were processed

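The authors deposited whole-number counts per gene for 3' mRNA libraries. The authors used STAR 2.7.6a, featureCounts 2.0.1, UMI-tools 1.1.1 and fastp 0.21.0, per the submitters' processing notes, which give no order. Per the file headers the counts came from featureCounts 1.5.1 on AGPv4 release 37, with no strand setting. A deposited quantile-normalized table of 18370 genes, whose values are a score rounded by the authors, and a deposited network table of weights, also a score, were used as an alternative and for gene lists. 2 columns of the count table match no sample and were not used.

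Counts were tested in edgeR 4.0.16 (R 4.3.3) with TMM scaling and filterByExpr. All 57 libraries were fitted as 19 group means, which left 38 residual degrees of freedom, and p-values were adjusted over 18412 of 46335 genes. SE is the log2 change divided by the root of F. CPM is TMM-scaled. On simulated data for nitrogen 45 min minus start, with 200 of 18288 genes changed, 15% of 1.5-fold and 92% of 3-fold changes were recovered and 7 unchanged genes were called. The changed genes were drawn only from those above an abundance limit. Each library was drawn independently, with no shared within-group axis and no start library that stood apart. The simulated counts of calls therefore do not cover those features of the real libraries. DESeq2 1.42.0 and limma 3.58.1 served as alternatives.

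Named genes were the 10 largest changes in each direction with a mean of at least 5 CPM and groups that do not overlap, the 5 most abundant called genes in each direction, the 5 largest changes in each direction among network regulators, and every called organelle model. Organelle models took a RefSeq name when exactly 1 protein-coding gene overlapped and shared a start or end, which named 20 of 28. Lists defined by gene names (nitrate and ammonium assimilation, photosynthesis, clock and others, with shoot and root markers) could not be matched to identifiers. Members and lists were chosen with earlier results of these data known, and the comparison at 30 and 60 min was added after the data were seen.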

Additional observations from a re-analysis of the deposited data

Results flagged for a closer look

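The change from the start at 45 min differed between nitrogen and KCl for 4355 genes, 1840 higher and 2515 lower in nitrogen, by edgeR's direct test between the media. This was the one result that met a rule for a closer look, as a difference between groups under the same contrast. Leaving out 1 library at a time gave between 2552 and 3998 genes, and the within-group axis as a covariate gave 343.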

How the results depend on the processing

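The 341 genes called between nitrogen at 45 min and the start became 1007 with no filter on low counts, 560 when only the libraries compared were fitted, 155 in DESeq2 and 71 when the within-group axis was a covariate. Leaving out 1 library at a time gave 64 to 393 genes. It was 64 without start replicate 3 (59 higher, 5 lower), 66 without nitrogen replicate 2 and 132 without nitrogen replicate 3. Other scalings, a stricter abundance limit, the authors' deposited normalized table and leaving out a nitrogen 120 min library with 8560 counts gave 314 to 375. The 4355 genes between nitrogen and KCl at 45 min became 343 with the axis, 2718 in DESeq2 and 2552 to 3998 with 1 library left out. The 907 genes between KCl at 45 min and the start became 359 in DESeq2 and 150 to 1221 with 1 library left out, lowest without start replicate 1. The cause was not tested. No gene that met the rule for named genes changed direction under any alternative.

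Replicate numbers are shared by the groups, but same-numbered nitrogen 45 min and start libraries deviated together at correlations of only -0.14, 0.09 and -0.03, so the numbers were not taken as pairs. With the replicate block the counts were 311, 4346 and 871 in the same order of comparisons, and 709 for nitrogen at 45 min against the start with the block and only the libraries compared. Nitrogen replicate 1 correlated best with start replicate 3.

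Counts near 1 per library limit the genes under 5 CPM, and on simulated data 3 libraries a group recovered few changes of 1.5-fold.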

Other observations

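Gene models with a single exon were frequent among the falls. They made up 46 of 197 genes that fell (23.4%), 14 of 144 that rose (9.72%) and 1656 of the 18412 genes tested (8.99%). Over all 1656, the median log2 difference was -0.27 between nitrogen at 45 min and the start, -0.30 between nitrogen and KCl at 45 min, -0.23 between nitrogen and KCl at 30 and 60 min, and 0.04 between KCl at 45 min and the start. The genes with more exons had medians between -0.01 and 0.03 in the same 4 comparisons. In start replicate 3 the 1-exon models exceeded the mean of the other start libraries by a median of 0.12 on the log2 scale, against -0.03 for the rest. The part of that library in the pattern was not tested beyond the comparisons that leave the start out. As a share of all counts, nuclear 1-exon models took 4.32% ± 0.196 in nitrogen at 45 min and 4.45% ± 0.0369 at the start (SD, n = 3 each; two-sided exact permutation p 0.4).

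Few called genes lay within 50 kb of each other, and whether they were more than unrelated calls would give was not tested. Zm00001d048135, Zm00001d048136 and Zm00001d048137 on chromosome 9 (150649838 to 150681529) rose by 0.73, 0.80 and 0.80 on the log2 scale. Zm00001d026014 and Zm00001d026015 on chromosome 10 fell by 0.84 and 2.38, with 1051 bases between them. None of these 5 calls was kept without start replicate 3, when the log2 changes were 0.65, 0.80, 0.66, -0.77 and -1.92 in the order given. The other close pairs changed in opposite directions. Zm00001d053919 and Zm00001d053923 on chromosome 4 changed by 0.51 and -0.44 on the log2 scale. Zm00001d016864 and Zm00001d016866 on chromosome 5 changed by -2.83 and 0.74.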
